A study of Rattus norvegicus with 13 samples.

Results

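The 10 genes described here are markers of the cells that wrap blood vessels, measured in bulk RNA of rat hearts. They were taken by symbol: 3 contractile smooth muscle genes (Myh11, Tagln and Cnn1) and 7 genes of pericytes and other mural cells (Mcam, Rgs5, Pdgfrb, Cspg4, Notch3, Abcc9 and Kcnj8). All 10 were listed in each of the 3 deposited tables, among 25600 names at 2 months and 38600 names at 6 and 8 months. Bulk RNA was sequenced in 13 hearts of Rattus norvegicus. Sonogenetic hearts, called ST here, had received AAV2/9-cTnT-MscL-G22S-mCherry, an adeno-associated virus in which the heart muscle promoter cTnT drives a bacterial mechanosensitive channel variant with a red fluorescent protein. Control hearts are labelled WT with no treatment. There were 2 ST and 2 WT hearts at 2 months, 3 ST and 3 WT hearts at 6 months, and 3 ST hearts at 8 months with no WT hearts of that time. The labels name each heart a biological replicate and do not say whether the months are age or time after the virus, nor whether ultrasound was given.

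Smooth muscle cells ring arteries and arterioles and contract through a smooth muscle myosin and its actin-binding partners, whose genes are driven largely by serum response factor with myocardin. Pericytes sit on capillaries. Endothelial cells recruit both kinds of mural cell with platelet-derived growth factor B acting on Pdgfrb, and keep arterial smooth muscle mature through Jagged ligands acting on Notch3. In heart vessels, an ATP-sensitive potassium channel made of Kcnj8 and Abcc9 sets the membrane voltage and with it the vessel's tone. Several of the markers are shared with other heart cells: Mcam with endothelium, Pdgfrb with fibroblasts, and Abcc9 with heart muscle, whose own ATP-sensitive channel uses the same gene.

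RefSeq promoter sequences (build GRCr8, 250 bases before to 50 bases after the gene start) were held for 6 of the 10 genes: Cnn1, Rgs5, Cspg4, Notch3, Abcc9 and Kcnj8. Myh11, Tagln, Mcam and Pdgfrb were not among them. Shown are the promoters of the contractile gene that differed most at 6 months, of Notch3, and of the channel pair Abcc9 and Kcnj8, of which Abcc9 alone passed the test at 6 months. They lie at chr8:28908187-28908486 on the plus strand (Cnn1) and, on the minus strand, at chr7:11834536-11834835 (Notch3), chr4:177386299-177386598 (Abcc9) and chr4:177246499-177246798 (Kcnj8). Capitals mark a match to TGGGAA, the core site of the Notch factor Rbpj (TTCCCA when it reads on the other strand), or to the MEF2 box.
Cnn1: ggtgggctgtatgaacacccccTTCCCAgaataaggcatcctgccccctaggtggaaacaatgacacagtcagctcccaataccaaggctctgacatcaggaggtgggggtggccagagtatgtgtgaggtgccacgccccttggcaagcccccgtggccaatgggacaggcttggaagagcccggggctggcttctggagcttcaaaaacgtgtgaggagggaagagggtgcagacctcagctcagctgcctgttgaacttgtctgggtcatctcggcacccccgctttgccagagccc
Notch3: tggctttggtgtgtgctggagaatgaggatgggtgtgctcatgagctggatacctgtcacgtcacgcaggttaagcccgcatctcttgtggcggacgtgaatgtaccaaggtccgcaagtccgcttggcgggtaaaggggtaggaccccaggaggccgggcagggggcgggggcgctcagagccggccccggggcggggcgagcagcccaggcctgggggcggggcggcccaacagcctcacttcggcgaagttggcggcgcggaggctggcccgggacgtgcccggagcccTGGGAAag
Abcc9: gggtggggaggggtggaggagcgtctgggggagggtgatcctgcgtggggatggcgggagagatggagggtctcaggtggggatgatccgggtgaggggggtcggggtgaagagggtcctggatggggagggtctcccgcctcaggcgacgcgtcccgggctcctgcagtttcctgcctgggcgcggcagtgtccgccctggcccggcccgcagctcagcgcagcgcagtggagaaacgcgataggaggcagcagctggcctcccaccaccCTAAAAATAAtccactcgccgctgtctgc
Kcnj8: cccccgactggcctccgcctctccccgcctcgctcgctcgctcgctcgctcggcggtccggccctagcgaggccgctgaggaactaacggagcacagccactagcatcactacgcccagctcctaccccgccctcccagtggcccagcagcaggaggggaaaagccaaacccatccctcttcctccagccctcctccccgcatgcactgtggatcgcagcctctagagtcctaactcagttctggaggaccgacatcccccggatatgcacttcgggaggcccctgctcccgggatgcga
On both strands, 0 of the 6 promoters held a CArG box, the site of serum response factor, against 1.64% of 33469 rat promoters of this length. With so low a share, 0 of 6 says little, and Cnn1 is the only contractile gene among the 6. The Cnn1 match to TGGGAA lies 228 to 223 bases before the start, that of Notch3 at bases 42 to 47 after it, and 25.7% of all promoters hold one. The MEF2 box of Abcc9 lies at bases 21 to 30, and 3.29% of all promoters hold one. The matches did not overlap each other. Kcnj8 and Abcc9 are next to each other on chromosome 4 in that assembly. These are matches of letters in short windows, not measured binding.

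Levels are counts per M counts (CPM), scaled by TMM (trimmed mean of M-values) within the 2-month table and across the later tables. CPM is not corrected for gene length, so levels are compared between hearts and not between genes. Library totals ran from 4.7 to 11.3 M counts, and the 3 shallowest were the ST hearts of 8 months, at 4.7 to 5.57 M counts. The transgene had 94 to 1667 counts in every ST heart and 0 in every WT heart. Heart muscle markers summed to 60387 CPM or more in every heart. Of the members, 9 had at least 98 counts in every heart, so both sets of markers were detected. Cnn1 was the exception, with 2 to 43 counts per heart.

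Within groups of 3, 2 ST hearts stood apart in all 3 contractile members. ST replicate 1 of 8 months exceeded both other hearts of its group by over 1.5 times in 3 of 3 contractile members and 0 of 7 pericyte members, where 1.84% of all genes did so. ST replicate 2 of 6 months was below both others by that margin in 3 of 3 contractile members and again 0 of 7 pericyte members, where 2.14% of all genes were. That margin was chosen after the values were seen. Among WT hearts of 6 months, only Cnn1 of the members passed it, with replicate 1 above and replicate 2 below both others. With further contractile genes added, WT replicate 2 was below both others in 3 of 25, against 1.4% of all genes. Tests of the contractile members are also given without 1 of these 2 ST hearts. Other results use all hearts unless stated.

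**Figure D1:**
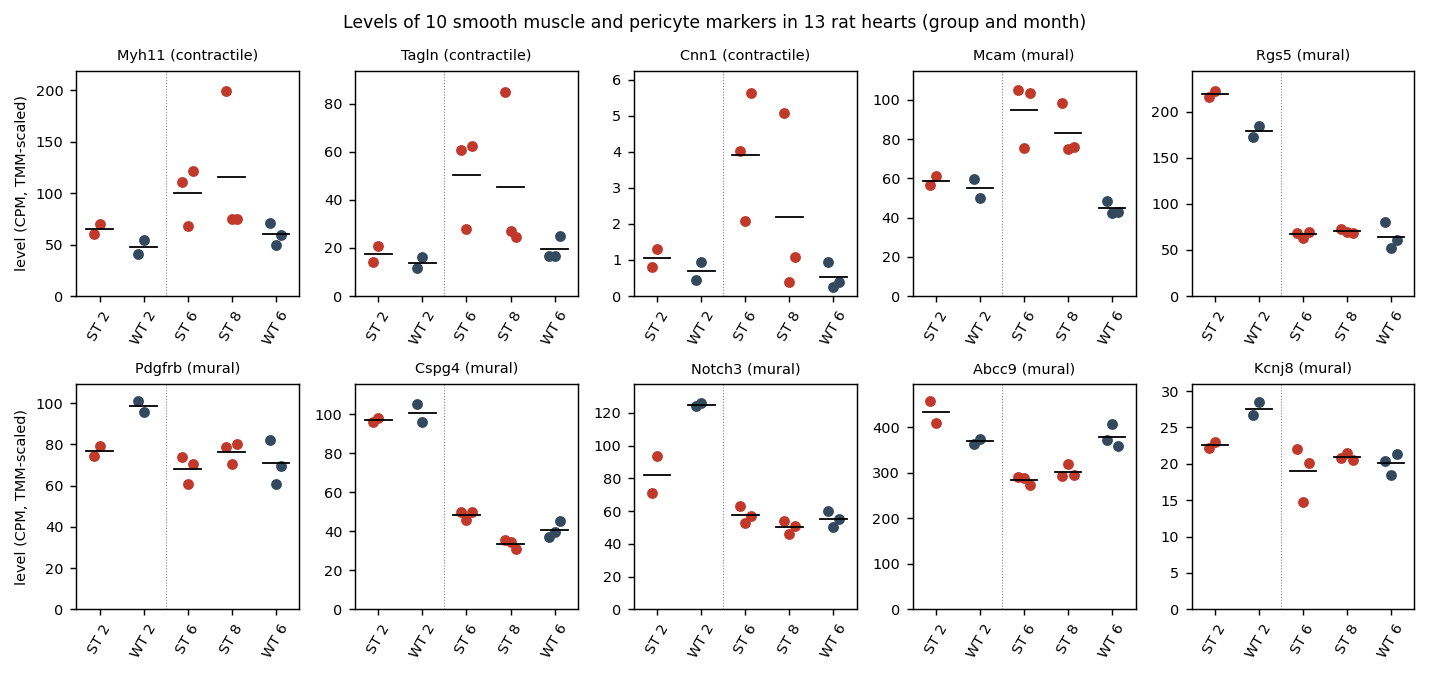
Level of each marker in every heart, in CPM scaled by TMM, by group (ST or WT) and month; points are hearts and bars are group means. The dotted line parts the 2-month table, whose levels are not on one scale with the others. In Myh11 and Tagln, 1 ST heart of 8 months lies above all others, at 199 and 84.8 CPM, while Rgs5, Pdgfrb and Notch3 overlapped across the hearts of 6 and 8 months.

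The first question is how hearts carrying the channel differed at the earliest time, 2 months. Of 9 members tested, only Notch3 differed, and it was lower in ST hearts. Notch3, the Notch receptor of arterial smooth muscle and pericytes, had 70.9 and 93.5 CPM in ST hearts, against 124 and 126 CPM in WT hearts. Both ST hearts lay below both WT hearts, and they differed more from each other than the WT hearts did. The log2 fold change was -0.61 (SE 0.14, adjusted p = 0.0207, edgeR quasi-likelihood test). With any 1 of the 4 hearts left out, the change ran from -0.82 to -0.42. Each such fit at 2 months leaves 1 heart in a group, so the call could not be tested that way.

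By the same test, 4.8% of 12121 genes differed at 2 months, 2.7% as higher and 2.1% as lower, against 1 lower and 0 higher among the 7 pericyte members and 0 of 2 tested contractile members (1 of these 2 at an unadjusted p under 0.05, and 0 called by DESeq2). In bulk tissue, fewer cells of a type and less RNA per cell cannot be told apart, here and in every later comparison. Pdgfrb, the receptor through which platelet-derived growth factor B recruits mural cells, had 74.3 and 79.0 CPM in ST hearts, against 101 and 95.7 CPM in WT hearts. The groups did not overlap, but the change of -0.36 (SE 0.13) missed the threshold at adjusted p = 0.127. With 1 heart left out, the Pdgfrb change ran from -0.41 to -0.32.

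Myh11, the smooth muscle myosin heavy chain, had 59.95 and 70.2 CPM in ST hearts, against 41.3 and 54.7 CPM in WT hearts. The ST hearts were the higher ones without overlap, at a log2 difference of 0.44 (SE 0.15, adjusted p = 0.117). Myh11 passed with no filter on low counts (adjusted p = 0.0394). With 1 heart left out, its difference ran from 0.25 to 0.64, and 1 heart then remains in a group. Tagln, which encodes the actin-binding protein transgelin, overlapped between groups at 13.96 and 20.8 CPM in ST hearts, against 11.6 and 16.1 CPM in WT hearts (0.33, SE 0.22, adjusted p = 0.451). Cnn1, the actin-binding regulator calponin, had 9 and 11 counts in ST hearts, against 4 and 6 counts in WT hearts, which was below the filter for testing.

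Among the remaining pericyte members at 2 months, Rgs5, a brake on G protein signalling that marks pericytes, had 216 and 222 CPM in ST hearts, against 173 and 185 CPM in WT hearts (0.29, SE 0.13, adjusted p = 0.212). Both channel subunits lacked overlap yet missed the threshold. Abcc9, the sulfonylurea receptor subunit, had 458 and 409 CPM in ST hearts, against 364 and 375 CPM in WT hearts (adjusted p = 0.358). Kcnj8, the pore subunit, had 22.2 and 23.0 CPM in ST hearts, against 26.7 and 28.6 CPM in WT hearts (adjusted p = 0.330). Mcam, an adhesion molecule of mural cells and endothelium, and Cspg4, the proteoglycan NG2 of pericytes, overlapped between the groups at differences of 0.09 (SE 0.14) and -0.05 (SE 0.13). Of all genes, 48.9% lacked overlap at this group size, against 6 of the 9 members tested.

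Markers of neighbouring cells differed at 2 months as well, when 2.7% of all genes were called higher and 2.1% lower. Of 15 endothelial markers, 2 were higher and 1 lower, and their summed level was 2381 to 2439 CPM in ST hearts, against 1956 to 2047 CPM in WT hearts. The lower one was Kdr, the main endothelial receptor of vascular endothelial growth factor (-0.57, SE 0.14, adjusted p = 0.0235). The largest part of the endothelial sum was Ptprb, 1 of the 2 higher ones, with means of 725 CPM in ST and 431 CPM in WT hearts. The median log2 fold change over the endothelial list was 0.03, so the higher sum does not describe the list. Of 5 mesothelial markers tested, 3 were higher, at 91.6 to 104 CPM summed in ST hearts, against 53.2 to 53.3 CPM in WT hearts. Most of that sum was Aldh1a1, which was among the 3, with means of 73.9 CPM in ST and 40.3 CPM in WT hearts. Msln, which encodes mesothelin and was also among the 3, had 57 and 11 counts in ST hearts, against 1 and 1 counts in WT hearts. Fibroblast and heart muscle markers had 0 called by edgeR of 12 and of 9 tested (4 and 2 at an unadjusted p under 0.05). The part of these cell types in the lower Notch3 was not tested.

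At 6 months the contractile genes were higher in ST hearts, all 3 of 3, while the pericyte genes were divided: Mcam and Cspg4 were higher, Abcc9 was lower, and Rgs5, Pdgfrb, Notch3 and Kcnj8 did not pass the test. The same test called 40% of 13253 genes, 19.9% higher and 20.1% lower, so a count of calls alone says little here and the sizes matter more. Hearts of the groups did not overlap in 2 contractile and 3 pericyte members, against 51.7% of all genes. The median log2 fold change was 1.37 over the contractile members and 0.06 over the pericyte members, against -0.0016 over all genes tested.

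Myh11 had 111, 68.3 and 122 CPM in ST hearts, against 71.4, 49.8 and 59.5 CPM in WT hearts. ST replicate 2 fell inside the WT range, so the groups overlapped. The log2 fold change was 0.74 (SE 0.18, adjusted p = 0.00739). Tagln had 60.7, 27.9 and 62.4 CPM in ST hearts, against 16.7, 16.5 and 24.9 CPM in WT hearts. No hearts overlapped, though ST replicate 2 lay close above the highest WT heart, and the fold change was 1.37 (SE 0.27, adjusted p = 0.0017).

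Cnn1 had 4.02, 2.09 and 5.63 CPM in ST hearts, against 0.96, 0.26 and 0.40 CPM in WT hearts. These were 26, 17 and 43 counts in ST hearts, against 7, 2 and 3 counts in WT hearts, so the WT side was a few reads. Its log2 fold change of 2.83 (SE 0.50, adjusted p = 0.000919) was larger than that of 99.4% of genes tested. The contractile calls held in every alternative in which the gene was tested (Cnn1 was not under a filter of 5 CPM), including the one without ST replicate 2, where their median was 1.68.

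Mcam separated the groups more evenly than the contractile genes did. It had 105, 75.6 and 104 CPM in ST hearts, against 48.7, 42.5 and 42.9 CPM in WT hearts. Every ST heart was far above every WT heart, with ST replicate 2 again the lowest of its group. The log2 fold change was 1.09 (SE 0.12, adjusted p = 2.86e-05), larger than in 96.3% of genes.

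Abcc9 went the other way, with 289.7, 288 and 272 CPM in ST hearts, against 372, 407 and 359 CPM in WT hearts. All ST hearts were below all WT hearts, and the coefficient of variation was 3.46% among ST and 6.57% among WT hearts. Its log2 fold change was -0.42 (SE 0.07, adjusted p = 0.00064). Its partner Kcnj8 had 22.1, 14.8 and 20.2 CPM in ST hearts, against 20.4, 18.5 and 21.4 CPM in WT hearts, which overlapped (-0.08, SE 0.14, adjusted p = 0.668). Whether the changes of the 2 subunits differed from each other was not tested.

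Cspg4 had 49.9, 45.9 and 49.9 CPM in ST hearts, against 37.4, 39.5 and 45.5 CPM in WT hearts. The groups stood apart by a small gap, and the change of 0.25 (SE 0.09) passed only narrowly, at adjusted p = 0.0478. It was lost at adjusted p = 0.243 with scaling by library size only, at adjusted p = 0.0579 with a filter of 5 CPM, at adjusted p = 0.1 in DESeq2, and without any of 4 of the 6 hearts (adjusted p = 0.119 to 0.141). Cspg4 overlaps Cimap1c and a tRNA gene in GRCr8, and the files do not say whether counting used strand. Cimap1c itself had 2 to 7 counts per heart.

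Rgs5, Pdgfrb and Notch3 did not pass at 6 months, and their groups overlapped. Rgs5 had 68.9, 62.8 and 69.8 CPM in ST hearts, against 80.2, 52.4 and 60.3 CPM in WT hearts. The WT hearts enclosed the ST hearts and varied more (coefficient of variation 5.71% among ST and 22.3% among WT hearts), and the difference was 0.07 (SE 0.13, adjusted p = 0.693). Pdgfrb had 73.8, 60.7 and 70.3 CPM in ST hearts, against 82.1, 60.9 and 69.5 CPM in WT hearts (-0.05, SE 0.11, adjusted p = 0.739). Notch3 had 63.0, 52.7 and 56.9 CPM in ST hearts, against 60.1, 50.6 and 55.2 CPM in WT hearts (0.06, SE 0.09, adjusted p = 0.637). For these genes the SE leaves room for changes of either sign.

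**Figure D2:**
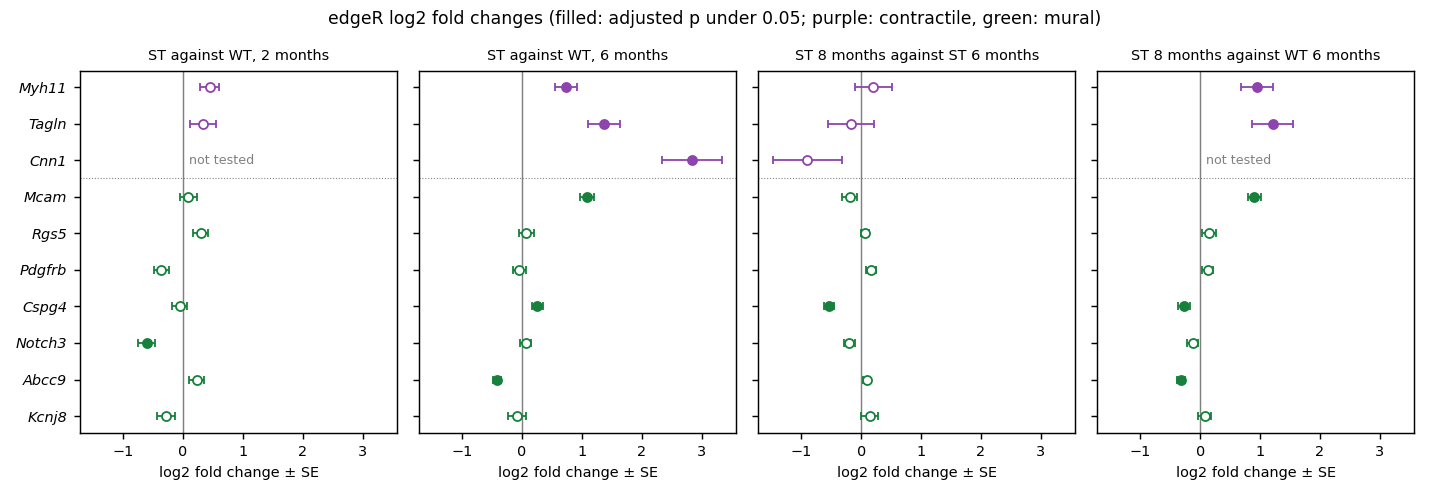
Log2 fold change with its SE for each marker in the 4 comparisons, by edgeR; filled points have an adjusted p under 0.05, contractile genes are purple and mural genes green. At 6 months the 3 contractile genes and Mcam lie to the right at 0.74 to 2.83, and Abcc9 lies to the left at -0.42.

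Of 22 further contractile genes tested at 6 months, 11 were higher and 2 lower in ST hearts, with a median of 0.21, where 19.9% of all genes were higher and 20.1% lower. Acta2, smooth muscle actin, had 84.3, 56.4 and 87.1 CPM in ST hearts, against 34.8, 27.5 and 32.2 CPM in WT hearts (1.27, SE 0.15, adjusted p = 5.39e-05). ST replicate 2 was again the lowest ST heart, and in Acta2 it lay above every WT heart. Cnn2, a calponin that many non-muscle cells make, was higher by 1.19 (SE 0.10), and the actin-binding proteins Csrp1 and Pdlim7 by 0.64 (SE 0.08) and 0.47 (SE 0.08).

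Of 6 regulators of this programme, Klf4 (1.82, SE 0.08), which represses contractile genes in cultured smooth muscle, and Srf (0.77, SE 0.07), the serum response factor itself, were higher in ST hearts of 6 months. Mrtfb, a cofactor of Srf, was lower (-0.47, SE 0.09). Srf had 184, 193 and 185 CPM in ST hearts, against 104, 107 and 119 CPM in WT hearts, with no low value in ST replicate 2. Myocd, which encodes myocardin, was called at 2 months and not at 6: it had 80.5 and 85.4 CPM in ST hearts, against 159 and 161 CPM in WT hearts of 2 months (-0.95, SE 0.13, adjusted p = 0.000204). Heart muscle also makes Myocd, Srf and Klf4.

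Further pericyte genes moved in both directions at 6 months, with 6 higher and 8 lower of 24 tested and a median of -0.21. Of all genes, 19.9% were called higher and 20.1% lower. The endothelin receptors were opposed, Ednrb at 1.02 (SE 0.09) and Ednra at -1.01 (SE 0.10). Kcnk3, a background potassium channel, was higher by 1.05 (SE 0.08), and Angpt1, the mural ligand of the endothelial receptor Tek, was lower at -2.18 (SE 0.28). ST replicate 2 stood apart in Angpt1, with 34.3 CPM against 11.9 and 14.02 CPM in the other ST hearts, while WT hearts had 78.9, 112 and 87.2 CPM.

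The Notch list had 6 genes higher and 3 lower of 20 tested at 6 months, a share near the 40% called among all genes, so the count says nothing particular about the list. Its ligands Dll1 (1.00, SE 0.17), Jag2 (0.58, SE 0.11) and Dll4 (0.48, SE 0.13), the receptors Notch1 (0.42, SE 0.12) and Notch4 (0.39, SE 0.12), and the feedback inhibitor Nrarp (1.25, SE 0.13) were the higher ones. Lower were the target gene Hey2 (-1.42, SE 0.24), the receptor-cleaving protease Adam10 (-0.55, SE 0.07) and the coactivator Maml2 (-0.43, SE 0.14). Hes1, Hey1 and Heyl, further target genes, and the ligand Jag1 did not pass. At 2 months Notch3 was the only one of these 20 to pass.

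Among 6 genes of platelet-derived growth factor signalling at 6 months, the endothelial ligand Pdgfb was higher (0.31, SE 0.11, adjusted p = 0.046), and Pdgfa (-0.40, SE 0.11), Pdgfc (-0.85, SE 0.21) and the fibroblast receptor Pdgfra (-0.45, SE 0.10) were lower. Pdgfd, a ligand of Pdgfrb, was the one gene of the list called at 2 months, at 0.91 (SE 0.25, adjusted p = 0.0471). Of the 4 ATP-sensitive channel subunits, Abcc9 alone passed at 6 months: the heart muscle pore subunit Kcnj11 changed by -0.07 (SE 0.08, adjusted p = 0.517) and the receptor Abcc8 by -0.17 (SE 0.11, adjusted p = 0.244).

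Markers of neighbouring cells also differed at 6 months, when 19.9% of all genes were called higher and 20.1% lower. Of 15 endothelial markers, 9 were higher and 2 lower, and their summed level was 2232 to 2545 CPM in ST hearts, against 1718 to 2093 CPM in WT hearts. Of 12 fibroblast markers, 6 were higher and 4 lower (3328 to 3761 CPM summed in ST hearts and 3132 to 3446 CPM in WT hearts). The largest part of that sum was Gsn, with means of 2184 CPM in ST and 1823 CPM in WT hearts. Col1a1 (53.5 against 120 CPM) and Col3a1 (151 against 317 CPM) were among the 4 lower ones. Pi16 (50.6 against 27.2 CPM) was among the 6 higher ones. The fibroblast sum therefore does not describe its list. The 10 heart muscle markers, with 4 higher and 1 lower, summed to 97534 to 103630 CPM in ST hearts, against 104290 to 111690 CPM in WT hearts. The lower one was Myh6, the largest part of the sum, with means of 39031 CPM in ST and 53941 CPM in WT hearts. Tnnt2 (13647 against 11336 CPM) and Actc1 (14643 against 12217 CPM) were among the 4 higher ones. The lower sum therefore follows Myh6 and does not describe the list. None of these 3 lists had a marker at 0 counts. Mesothelial markers summed to 82.9 to 118 CPM in ST hearts and 220 to 249 CPM in WT hearts, with 1 higher and 3 lower of 5 tested, and up to 5 of the 9 listed at 0 in an ST heart. Most of that sum was Aldh1a1, with means of 62.0 CPM in ST and 204 CPM in WT hearts. The higher one, Wt1, had means of 28.6 CPM in ST and 15.5 CPM in WT hearts. The part of these cell types in the changes of Mcam, Abcc9 and the contractile genes was not tested.

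The effect of ST at 6 months was set against that at 2 months by an interaction term over those 10 hearts, which called 22.2% of 12658 genes, 10.2% with a higher and 12% with a lower effect at 6 months. It passed for Mcam (0.99, SE 0.19, adjusted p = 0.00165), for Notch3 (0.66, SE 0.16, adjusted p = 0.00941) and for Abcc9 (-0.66, SE 0.13, adjusted p = 0.00158). For Mcam and Abcc9 the call was at 6 months, and for Notch3 at 2 months. None of the 3 contractile members passed in edgeR (2 at an unadjusted p under 0.05, and 0 passed in DESeq2): Tagln differed by 1.03 (SE 0.43, adjusted p = 0.0974), Cnn1 by 2.19 (SE 0.93, adjusted p = 0.102) and Myh11 by 0.28 (SE 0.28, adjusted p = 0.513). Without ST replicate 2 of 6 months, Tagln (1.33, adjusted p = 0.0028) and Cnn1 (2.51, adjusted p = 0.0344) passed. With no filter on low counts they passed too, at adjusted p = 0.0015 and adjusted p = 0.0479. The higher contractile genes of 6 months are therefore not shown to be particular to that time.

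ST hearts of 8 months were set against ST hearts of 6 months. The 8-month libraries form a table of their own, so time and table cannot be told apart, and the ST hearts of 6 months also enter the comparison above. Only Cspg4 was called among the 10 members, and it was lower at 8 months, where 39.6% of 12931 genes were called, 19.1% as higher and 20.5% as lower. Cspg4 had 35.6, 34.3 and 30.9 CPM in ST hearts of 8 months, against 49.9, 45.9 and 49.9 CPM in ST hearts of 6 months. The groups did not overlap, as in 51% of all genes, at -0.53 (SE 0.09, adjusted p = 0.00037), and the call held in every alternative run. Mcam (-0.19, SE 0.13), Rgs5 (0.07, SE 0.07), Pdgfrb (0.16, SE 0.09) and Kcnj8 (0.15, SE 0.14) did not pass, and their groups overlapped. Notch3 overlapped as well (-0.20, SE 0.09, adjusted p = 0.096 in edgeR). Abcc9 was higher at 8 months without overlap, but did not pass (0.09, SE 0.06, adjusted p = 0.262 in edgeR).

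None of the 3 contractile genes passed between ST hearts of 8 and 6 months in edgeR (0 at an unadjusted p under 0.05, and 0 in DESeq2), and replicate 1 of 8 months stood above both other hearts of its group in all 3. Myh11 had 199, 74.4 and 74.9 CPM in ST hearts of 8 months, Tagln had 84.8, 26.9 and 24.4 CPM, and Cnn1 had 5.09, 0.38 and 1.09 CPM (24, 2 and 6 counts). In Cnn1 replicate 2 also stood apart, below replicate 3. Replicate 1 was the highest of all 9 later hearts in Myh11 and Tagln, while replicates 2 and 3 lay at the level of the lowest ST heart of 6 months or below it, except in Myh11, where they were slightly above it. The log2 differences were 0.20 for Myh11 (SE 0.31, adjusted p = 0.642), -0.17 for Tagln (SE 0.39, adjusted p = 0.761) and -0.90 for Cnn1 (SE 0.58, adjusted p = 0.245).

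Without replicate 1 of 8 months, Tagln (-0.97, SE 0.29, adjusted p = 0.0244) and Cnn1 (-2.37, SE 0.59, adjusted p = 0.0104) were lower at 8 months, and Myh11 was at -0.43 (adjusted p = 0.106). With no filter on low counts Cnn1 passed with all hearts (adjusted p = 0.0178), as did Mcam (-0.22, adjusted p = 0.0389). Without ST replicate 2 of 6 months, Mcam (-0.34, adjusted p = 0.00726) and Notch3 (-0.26, adjusted p = 0.0253) passed as lower at 8 months. A decline of the contractile genes thus depended on which hearts were kept.

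**Figure D3:**
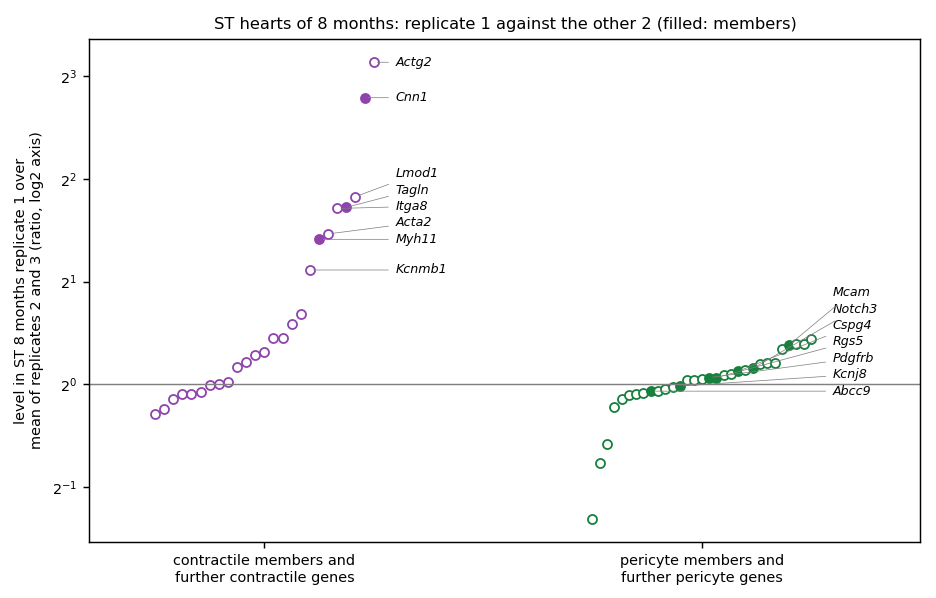
Level in ST replicate 1 of 8 months over the mean of replicates 2 and 3 (ratio on a log2 axis) for 25 contractile genes and 31 pericyte genes, each ordered by its ratio; filled points are the 10 markers described here. The contractile genes run from 0.82 to 8.80 with a median of 1.24, and the pericyte genes from 0.40 to 1.36 with a median of 1.04.

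ST replicate 1 of 8 months exceeded both other hearts by over 1.5 times in 9 of 25 contractile genes, against 1.84% of all genes, and in 0 of 31 pericyte genes. Besides the 3 members described above, these were Acta2, Actg2, Lmod1, Itga8, Kcnmb1 and Myl9. At a share of 1.84%, 0 of 31 says little. That heart was below both others by the same margin in 0 of 25 contractile and 2 of 31 pericyte genes, against 2.79% of all genes. Acta2 had 102, 36.0 and 38.0 CPM in ST hearts of 8 months, in replicate order, and Actg2, the actin of visceral smooth muscle, had 9.75, 0.94 and 1.27 CPM. Lmod1, a smooth muscle leiomodin, had 15.5, 4.71 and 4.0 CPM. Of the pericyte members, Mcam stood highest in that heart relative to the others, at 98.5 CPM against 74.8 and 76.2 CPM, a ratio of 1.305 to their mean. The ratios of the other 6 ran from 0.955 in Abcc9 to 1.113 in Notch3, with 72.5 CPM of Rgs5 against 69.9 and 68.7 CPM, and 53.8 CPM of Notch3 against 46.0 and 50.7 CPM in the other ST hearts of 8 months.

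Heart muscle markers summed to 113910 CPM in that heart, against 114640 and 113570 CPM in the others, and endothelial markers to 2462 CPM, against 2248 and 2283 CPM. The transgene stood at 159 CPM in it, between the 115 and 182 CPM of the others. At 6 months, by contrast, ST replicate 2 had the lowest transgene level of its group as well, 94.4 CPM against 204 and 218 CPM. The part of the transgene level in the lower contractile values of that heart was not tested.

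Of 22 further contractile genes, 0 were higher and 5 lower in ST hearts of 8 months than of 6 months (9 had an unadjusted p under 0.05), and without replicate 1 of 8 months 8 were lower. With all hearts, 19.1% of all genes were called higher and 20.5% lower, so the counts of lower genes in these lists say little by themselves. The smallest p was that of Synpo2, an actin-bundling protein of the Z-disc and of smooth muscle (-0.84, SE 0.08), and Cnn2 was lower as well (-0.38, SE 0.09). Klf4 (-1.21, SE 0.07), Srf (-0.51, SE 0.06) and Mrtfa, another Srf cofactor (-0.64, SE 0.14), were lower at 8 months. Further pericyte genes were divided again, 6 higher and 4 lower of 24, with Kcnk3 at -1.43 (SE 0.08) and Ebf1, a transcription factor of pericytes, at 0.98 (SE 0.12). In the Notch list, 3 genes were higher, with Hey2 at 1.81 (SE 0.24), and 6 lower, with Nrarp at -1.50 (SE 0.15).

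ST hearts of 8 months were last set against WT hearts of 6 months, the only later WT hearts. Time, table and transgene cannot be told apart here, and both groups of hearts enter a comparison above. Mcam was higher and Abcc9 lower in ST hearts of 8 months, and both calls held in every alternative run. The test called 33.9% of 13095 genes, 17.8% as higher and 16.1% as lower, and hearts did not overlap in 46.7%.

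Mcam had 98.5, 74.8 and 76.2 CPM in ST hearts of 8 months, against 48.7, 42.5 and 42.9 CPM in WT hearts of 6 months, without overlap (0.90, SE 0.10, adjusted p = 5.33e-06). Abcc9 had 293, 318 and 295 CPM in ST hearts of 8 months, against 372, 407 and 359 CPM in WT hearts of 6 months, again without overlap (-0.32, SE 0.07, adjusted p = 0.00222). Cspg4 was lower, at -0.27 (SE 0.10, adjusted p = 0.0492), and lost its call with RLE size factors (adjusted p = 0.0528), DESeq2 (adjusted p = 0.144), limma-voom (adjusted p = 0.056) and without any of 5 of the 6 hearts (adjusted p = 0.0602 to 0.216). Its direction against WT was thus opposite at 8 and at 6 months, and neither call was firm.

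Myh11 (0.95, SE 0.27, adjusted p = 0.0117) and Tagln (1.21, SE 0.34, adjusted p = 0.0118) were higher in ST hearts of 8 months than in WT hearts of 6 months with all hearts. Both calls were lost without ST replicate 1 of 8 months, where the log2 fold changes were 0.33 (adjusted p = 0.0531) and 0.42 (adjusted p = 0.0767), and in DESeq2 (adjusted p = 0.154 and adjusted p = 0.133). Myh11 was also lost without WT replicate 2 (adjusted p = 0.0544). Cnn1 was below the filter for testing; with no filter it was higher by 1.94 (adjusted p = 0.000932), and in a fit over all groups by 1.93 (adjusted p = 0.0642).

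Rgs5 (0.14, SE 0.11), Pdgfrb (0.12, SE 0.10), Notch3 (-0.13, SE 0.09) and Kcnj8 (0.07, SE 0.11) did not pass between ST hearts of 8 months and WT hearts of 6 months. Without WT replicate 1, Rgs5 (0.32, adjusted p = 0.00608) and Pdgfrb (0.23, adjusted p = 0.0413) were called higher. That WT heart held the highest Rgs5 and Pdgfrb levels of the 9 later hearts. With all hearts, 17.8% of all genes were called higher and 16.1% lower. Of 21 further contractile genes tested, 9 were higher and 4 lower, and 5 were higher and 3 lower without ST replicate 1 of 8 months. Of 24 further pericyte genes, 7 were higher and 6 lower, with Angpt1 at -1.84 (SE 0.14) and Ednrb at 0.77 (SE 0.08). Ebf1 was higher in ST hearts of 8 months than in WT hearts of 6 months (0.52, SE 0.11), and lower in ST hearts of 6 months than in the same WT hearts (-0.47, SE 0.12). In the Notch list, Hey2 (0.40, SE 0.10) and Maml2 (0.65, SE 0.13) were likewise higher in ST hearts of 8 months, while both were lower than in the same WT hearts in ST hearts of 6 months. Endothelial markers had 10 higher and 0 lower of 15, at 2248 to 2462 CPM summed in ST hearts of 8 months, against 1718 to 2093 CPM in WT hearts of 6 months. Their part in the higher Mcam was not tested.

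**Figure D4:**
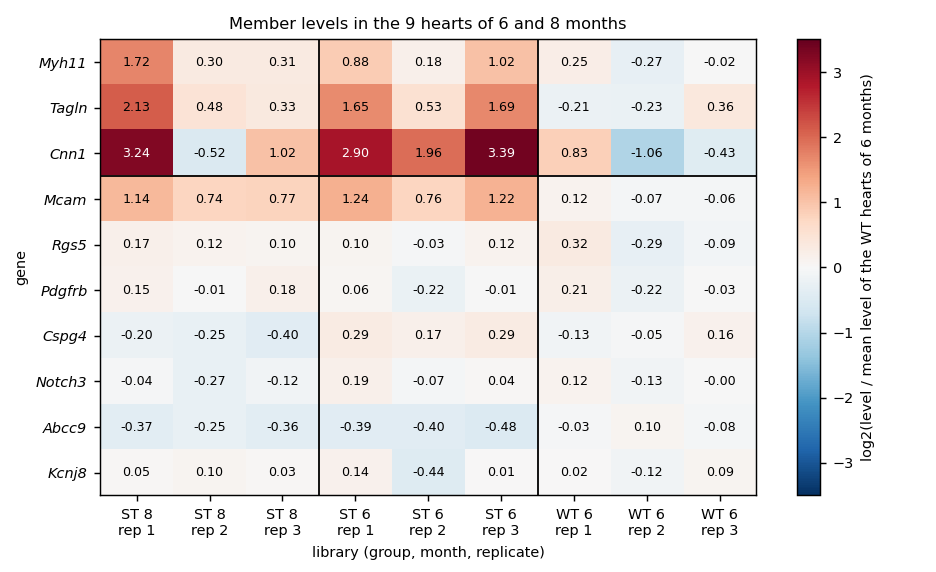
Log2 of each marker's level over its mean in WT hearts of 6 months, in each of the 9 hearts of 6 and 8 months (columns: group, month and replicate; red higher, blue lower). ST replicate 1 of 8 months and ST replicates 1 and 3 of 6 months are highest in Myh11, Tagln and Cnn1, and Mcam lies at 0.74 to 1.24 in all 6 ST hearts.

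Across the 9 hearts of 6 and 8 months, the genes whose levels followed Myh11 most closely were Tpm2, a tropomyosin of smooth and skeletal muscle, Acta2 and Susd2, at root mean square differences of 0.25, 0.28 and 0.29 (log2, each gene centred on its mean, 9500 genes compared, median 0.60). The nearest to Tagln were Acta2 (0.26), Myh11 (0.34) and Ankrd23 (0.36), with a median of 0.82. The nearest to Rgs5 were Plaa, Aida and F8, all between 0.08 and 0.09, and none was a member or from the lists of mural genes. Those nearest to Notch3 were Cdk16, Cops7a and Ikbkg, and those nearest to Kcnj8 were Colec12, Mvk and Hk1. Rgs5, Notch3 and Kcnj8 varied little (SD 0.18, 0.14 and 0.17 on the log2 scale), so many genes lie near them. Myh11 and Tagln had SDs of 0.61 and 0.85. ST replicate 1 of 8 months, the highest heart in Myh11 and Tagln, was among the 9 hearts. The nearest genes were not computed without it.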

How the data were processed

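Bulk RNA of 13 rat hearts was analysed from the 3 deposited tables, 1 per time point. The values are expected counts per gene as deposited: not negative, mostly whole and not scaled between samples. The counting tool and whether it used strand are not given in the sources used here. Expected counts were rounded. Each comparison used its own hearts, filterByExpr with a minimum count of 10, scaling by TMM, and edgeR 4.0.16 in R 4.3.3 (glmQLFit and glmQLFTest, a two-sided quasi-likelihood test), with Benjamini-Hochberg adjustment over all genes tested and a threshold of 0.05. SE is the absolute log2 fold change over the square root of F. The 13 mitochondrially encoded genes are listed at 2 months alone, so levels of 2 months and later are not compared. P-values measure the spread between these hearts, and no heart was dropped or imputed unless stated.

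The members, gene lists and rules were chosen with earlier results of these data known. Named genes are the members and up to 4 genes with the smallest p from every other list and comparison. The lists of Notch, PDGF and ATP-sensitive channel genes could be named in full. Actg2, Lmod1, Itga8, Kcnmb1, Myl9 and Gsn were named after their values were seen. Alternatives used RLE size factors, library size only, no filter, a filter of 5 CPM, DESeq2 1.42.0, limma-voom (limma 3.58.1), a replicate block, a fit over all 5 groups, no mitochondrially encoded and haemoglobin genes, and each heart left out in turn. The fits were tested on simulated data with known changes.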

Additional observations from a re-analysis of the deposited data

Results flagged for a closer look

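Of the 10 markers, 3 had an effect of ST that differed between 6 and 2 months by the interaction term of edgeR (quasi-likelihood test, Benjamini-Hochberg adjustment over all 12658 genes tested), which called 22.2% of all genes. The effect on Mcam was 0.99 higher at 6 months on the log2 scale (SE 0.19, adjusted p = 0.00165): it was higher in 3 of 3 ST hearts than in any WT heart at 6 months and overlapped at 2 months. The effect on Notch3 was 0.66 higher at 6 months (SE 0.16, adjusted p = 0.00941), where Notch3 was lower in 2 of 2 ST hearts at 2 months and overlapped at 6 months. The effect on Abcc9 was lower at 6 months, by -0.66 (SE 0.13, adjusted p = 0.00158), with 3 of 3 ST hearts below WT at 6 months and 2 of 2 above WT at 2 months. Of all genes, 51.7% lacked overlap between ST and WT hearts at 6 months and 48.9% at 2 months. All 3 calls held in every alternative run, though those without a heart of 2 months leave 1 heart in a group. No cause was tested.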

How the results depend on the processing

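No called value changed sign. At 2 months, the genes called numbered 1019 with no filter, 359 in DESeq2 and 1237 in a fit over all groups, and 271 to 2013 with 1 heart left out, the lowest without WT replicate 1 and the highest without ST replicate 2. Contractile genes called higher there were 1 with no filter and 0 to 1 with 1 heart left out, and pericyte genes called lower were 0 to 2 (median log2 fold change -0.13 to 0.018). At 6 months, pericyte genes called higher were 1 with library size only, a filter of 5 CPM or DESeq2, and 1 to 2 with 1 heart left out. Library size only shifted the median of all genes by -0.12 there and gave 1731 higher and 3714 lower; the splits were 3072 and 2140 for ST 8 against ST 6 months, 1880 and 2856 for ST 8 against WT 6 months, and 1005 and 1893 for the interaction. All 3 contractile genes, Mcam and Abcc9 kept their calls relative to that shift.

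For ST 8 against ST 6 months with no filter, contractile genes lower were 1 and pericyte genes lower 2; with 1 heart left out they were 0 to 2 and 1 to 3. For ST 8 against WT 6 months, pericyte genes lower were 1 with RLE size factors, DESeq2 or limma-voom, and contractile genes higher were 0 in DESeq2. With 1 heart left out, contractile genes higher were 0 to 2 (median 0.37 to 1.35), pericyte genes higher 1 to 3 and lower 1 to 2. For the interaction, contractile genes higher were 2 with no filter and 0 to 2 with 1 heart left out, and all genes called 1558 to 3197, lowest without WT replicate 1 of 2 months. The cause of these moves was not tested.

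The replicate numbers are not stated to pair hearts, and deviations of same-numbered hearts correlated at 0.07 at 2 months, at 0.0039 to 0.11 at 6 months, at 0.0378 to 0.178 between ST hearts of 8 and 6 months, and at 0.0262 to 0.0404 between ST hearts of 8 months and WT hearts of 6 months. Not every heart correlated best with its own number. With the replicate number as a block, contractile genes higher in the interaction were 1 (Tagln, adjusted p = 0.0116), and no other count of members changed. Counts without 1 heart for the further gene lists were added after seeing the data. With 3 counts as a chosen floor, levels under 0.266 CPM in the deepest and 0.639 CPM in the shallowest library rest on fewer counts than that. Cnn1 lay under this floor, at 2 counts each, in WT replicate 2 of 6 months and ST replicate 2 of 8 months. The floor covers counting error only.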
